A study of Mus musculus with 9 samples.

Results

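A set of 7 chemokine genes and 3 genes of prostaglandin synthesis were followed across 3 kinds of mouse neural cells: Cxcl10, Ccl2, Ccl7, Ccl5, Cxcl1, Cxcl12 and Cx3cl1, and Ptgs1, Ptgs2 and Ptges. These 10 genes were chosen by differences already seen between the cell groups on these same arrays, so their levels and differences are given as a description, with no test. Of the 10 genes, 9 were measured, by 19 probe sets, among 18193 named genes on the array. Ptgs1 is the only symbol of no probe set in the annotation used and was not analysed here. For a gene with several probe sets, the one of highest mean over the 9 arrays was used, and the others are given beside it.

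RNA was measured on 9 Affymetrix mouse arrays, 3 biological replicates (A, B and C) in each of 3 groups. The yNSCs were neural stem cells obtained from murine cortical neurons by doxycycline-inducible expression of wild-type YAP, a transcriptional coactivator of the Hippo pathway, which lentiviral vectors delivered together with the rtTA transactivator. They were then passaged without doxycycline in NSC medium, which is DMEM/F12 with N2, glutamine, antibiotics, heparin and the murine growth factors EGF and bFGF. The NSCs were native murine neural stem cells in the same medium. The neurons were primary murine cortical neurons in Neurobasal with B27, glutamine, antibiotics and AraC, a drug that kills dividing cells; the labels name no vector for them. The study prepared such cultures from late embryos or newborn pups. Neither mouse strain nor sex is given in the labels. Cell type and medium therefore changed together between the neurons and the other groups, and their parts in a difference cannot be told apart. For yNSCs against neurons, YAP induction with its vectors, earlier doxycycline and passaging changed along with them, as far as the labels say. Between yNSCs and native NSCs, YAP induction with its vectors and earlier doxycycline changed together with the origin from neurons. Their parts cannot be told apart either. The values are log2 expression from RMA (robust multi-array averaging, in which 1 unit is a 2-fold change). A value below the lower quartile of an array, on average 3.49 on yNSC arrays, 3.43 on NSC arrays and 3.71 on neuron arrays, is called near background here.

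Chemokines are small secreted proteins that draw cells along a gradient through G protein-coupled receptors. CXCL10 and CCL5 are typical products of the interferon response, and CCL2 and CCL7 attract monocytes through CCR2. CXCL1 attracts neutrophils through CXCR2, and NF-kB drives it together with many other inflammatory genes. CXCL12 guides migrating neural precursors through CXCR4 and is scavenged by ACKR3. CX3CL1, or fractalkine, sits in the membrane of neurons and signals to microglia through CX3CR1. Prostaglandins are made from arachidonic acid that a phospholipase releases from membranes. The cyclooxygenases COX-1 (Ptgs1) and COX-2 (Ptgs2) turn it into prostaglandin H2, and terminal synthases such as PTGES convert that into prostaglandin E2. Ptgs1 is expressed steadily in many cells, while Ptgs2 is an inducible gene.

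The sequence just upstream of the genes is shown for 4 members, because 3 of them had their highest values in yNSCs and Cxcl12 had its highest in neurons. Windows of 300 bases, 250 before and 50 after the annotated start, came from RefSeq on GRCm38.p6, which gave one for 7 of the 10 genes (none for Ccl2, Ccl7 and Ccl5). They are Cxcl10 at chr5:92348840-92349139 on the minus strand, Cxcl1 at chr5:90890995-90891294 on the plus strand, Ptgs2 at chr1:150099781-150100080 on the plus strand and Cxcl12 at chr6:117168285-117168584 on the plus strand. They are printed 5′ to 3′ on the gene's strand, and capitals mark motif matches.
Cxcl10: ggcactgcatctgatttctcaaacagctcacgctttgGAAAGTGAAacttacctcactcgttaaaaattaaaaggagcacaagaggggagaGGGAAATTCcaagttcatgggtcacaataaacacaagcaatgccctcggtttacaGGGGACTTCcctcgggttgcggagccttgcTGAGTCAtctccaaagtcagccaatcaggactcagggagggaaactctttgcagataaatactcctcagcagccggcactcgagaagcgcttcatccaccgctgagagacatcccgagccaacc
Cxcl1: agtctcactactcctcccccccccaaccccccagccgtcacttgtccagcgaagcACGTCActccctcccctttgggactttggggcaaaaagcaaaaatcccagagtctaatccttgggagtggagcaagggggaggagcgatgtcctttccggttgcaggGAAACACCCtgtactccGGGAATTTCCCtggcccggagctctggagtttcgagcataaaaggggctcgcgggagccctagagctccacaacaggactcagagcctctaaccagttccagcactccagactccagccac
Ptgs2: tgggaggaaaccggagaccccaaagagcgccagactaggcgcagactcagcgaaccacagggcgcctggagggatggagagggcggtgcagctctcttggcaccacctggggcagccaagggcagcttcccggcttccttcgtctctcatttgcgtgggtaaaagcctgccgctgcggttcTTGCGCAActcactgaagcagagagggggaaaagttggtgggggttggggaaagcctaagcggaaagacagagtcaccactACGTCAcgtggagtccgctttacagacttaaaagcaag
Cxcl12: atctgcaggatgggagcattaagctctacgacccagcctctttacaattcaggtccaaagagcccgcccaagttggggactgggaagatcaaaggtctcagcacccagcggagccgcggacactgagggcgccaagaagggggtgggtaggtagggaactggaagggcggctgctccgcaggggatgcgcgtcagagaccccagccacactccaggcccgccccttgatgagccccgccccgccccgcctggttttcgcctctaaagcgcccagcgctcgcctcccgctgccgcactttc
6 motifs were searched on both strands, chosen with these sequences in view. They were the core of a kappa B site (GGGNNNTTC, held by 14% of 32851 promoter windows of the same length), an interferon-stimulated response element (GAAANNGAA, 8.56%), an AP-1 site (TGANTCA, 7.81%), the core of a cAMP response element (TGACGT, 7.51%), a C/EBP site (TTGCGCAA, 0.183%) and a TEAD site (GGAATG, 14.7%). TEAD factors are the DNA-binding partners of YAP. In the Cxcl10 window the capitals are, in order, an interferon-stimulated response element, 2 kappa B matches and an AP-1 match. In the Cxcl1 window they are a cAMP response element core, a kappa B match and a pair of kappa B matches that overlap on opposite strands. The Ptgs2 window held a C/EBP match before the start and a cAMP response element core after it. The Ptges window held 1 TEAD match, and the windows of Cxcl12, Cx3cl1 and Ptgs1 held none of the 6 motifs. A match describes letters in the window, and binding was not measured.

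The interferon-type chemokine Cxcl10 and the monocyte chemokines Ccl2 and Ccl7 were high in yNSCs and low in both other groups. Cxcl10 (probe set 1418930_at) read 8.45, 9.63 and 10.14 on yNSC arrays A, B and C, 4.49, 4.48 and 4.28 on the NSC arrays, and 4.17, 4.27 and 4.08 on the neuron arrays. The lowest yNSC array thus stood far above every other array, while NSCs and neurons lay next to each other without overlap. The difference of yNSCs was 5.23 on the log2 scale (SE 0.311, 37.6-fold) against neurons and 4.99 (31.8-fold) against NSCs, and NSCs differed from neurons by 0.24. Here and below, n is 3 arrays a group, and a gene's SE, from the spread pooled over the 3 groups, is the same in the 3 comparisons. The SD of Cxcl10 was 0.87 in yNSCs, 0.12 in NSCs and 0.10 in neurons. For genes spread most in yNSCs, the pooled SE is too small for comparisons of yNSCs and too large for NSCs against neurons.

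Ccl2 (1420380_at), which encodes the main monocyte attractant, read 7.45, 8.07 and 9.37 in yNSCs, 5.57, 5.22 and 5.12 in NSCs, and 4.69, 4.65 and 4.71 in neurons. All 3 groups were apart, in the order yNSCs, NSCs, neurons, with a difference of 3.61 (SE 0.353, 12.2-fold) for yNSCs against neurons, 2.99 for yNSCs against NSCs and 0.62 for NSCs against neurons. Ccl7, whose gene lies next to Ccl2 in RefSeq gene order, read 5.96, 6.60 and 7.78 in yNSCs, 4.75, 4.25 and 4.28 in NSCs, and 4.64, 4.15 and 3.93 in neurons. Its yNSC arrays stood apart from the rest, and NSCs and neurons overlapped. The difference was 2.54 (SE 0.36, 5.82-fold) against neurons and 2.35 against NSCs. Ccl11, the next gene on the other side of Ccl7 and an eosinophil attractant, averaged 2.60 in yNSCs, 2.68 in NSCs and 2.85 in neurons and was called in no comparison (limma adjusted p 0.0786 for yNSCs against neurons).

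Against neurons, on the probe sets used, Ccl5 and Cxcl1 showed smaller differences than Cxcl10, Ccl2 and Ccl7. Against NSCs the difference of Cxcl1 (2.39) was about that of Ccl7 (2.35). Ccl5, or RANTES, which attracts T cells and monocytes, read 5.20, 5.45 and 6.41 in yNSCs, 3.71, 3.78 and 3.49 in NSCs, and 3.65, 3.71 and 3.94 in neurons. NSCs and neurons overlapped at low values, and yNSCs were higher by 1.92 (SE 0.245) than neurons and by 2.03 than NSCs. The neutrophil chemokine Cxcl1 (1457644_s_at) read 7.48, 8.0 and 8.54 in yNSCs, 5.65, 5.78 and 5.43 in NSCs, and 6.71, 6.39 and 6.35 in neurons. The 3 groups were apart, with neurons between yNSCs and NSCs, at differences of 1.52 (SE 0.219) for yNSCs against neurons, 2.39 for yNSCs against NSCs and -0.86 for NSCs against neurons. Its other probe sets did not give the same size. On 1419209_at yNSCs read 6.94, 7.68 and 8.42, NSCs 3.48, 3.35 and 3.63, and neurons 4.11, 3.41 and 4.04. The differences there, 3.83 against neurons and 4.19 against NSCs, were larger than those of Ccl2. On 1441855_x_at the difference from neurons was 0.22, with overlap of yNSCs (6.67, 6.67 and 7.57) and neurons (6.78, 6.67 and 6.81). Cxcl2, a neighbour of Cxcl1 and a neutrophil attractant as well, averaged 6.20 in yNSCs, 3.16 in NSCs (near background) and 4.04 in neurons. It rose by 2.15 against neurons (SE 0.334, limma adjusted p 0.00011) and by 3.03 against NSCs (adjusted p 1.59e-05). Cxcl15, on the other side of Cxcl1, averaged 3.47, 3.49 and 3.56 in yNSCs, NSCs and neurons and was called in no comparison. Ccl9, a neighbour of Ccl5, averaged 4.15, 3.46 and 5.46. Its differences in yNSCs were -1.31 against neurons (adjusted p 6.37e-06) and 0.7 against NSCs (adjusted p 0.0023). Cxcl15 and Ccl9 were named after their values were seen.

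Cxcl12 and Cx3cl1, the chemokines with known roles in neural development and in talk between neurons and microglia, were highest in neurons. Cxcl12 (1448823_at) read 3.68, 4.18 and 4.38 in yNSCs, 3.35, 3.74 and 3.80 in NSCs, and 7.40, 6.96 and 7.13 in neurons. It was low in both stem cell groups, which overlapped, and lower than in neurons by 3.08 in yNSCs (difference -3.08, SE 0.187) and by 3.53 in NSCs (difference -3.53). This rests on 1 of 3 probe sets. The remaining pair, 1439084_at and 1417574_at, lay between 4.06 and 4.35 and between 3.04 and 3.55 on all 9 arrays and showed no such difference (-0.10 and -0.09 for yNSCs against neurons). Cx3cl1 (1415803_at) read 8.32, 8.31 and 8.53 in yNSCs, 6.68, 6.67 and 6.34 in NSCs, and 9.00, 9.07 and 8.99 in neurons. All 3 groups were apart, and the yNSCs lay nearer to neurons than to NSCs: -0.63 (SE 0.118) against neurons and 1.82 against NSCs, with -2.46 for NSCs against neurons. The second bright probe set, 1415804_at, gave the same order with smaller differences (-0.35, 0.94 and -1.29), and the 2 dim ones differed from neurons by 0.04 and -0.02 in yNSCs. Ccl22 and Ccl17, the neighbours of Cx3cl1 on either side and attractants of T cells, averaged 3.49 and 5.06 in yNSCs, 3.23 and 4.49 in NSCs, and 3.59 and 4.97 in neurons, and neither was called for yNSCs against neurons (adjusted p 0.432 and 0.687).

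**Figure D1:**
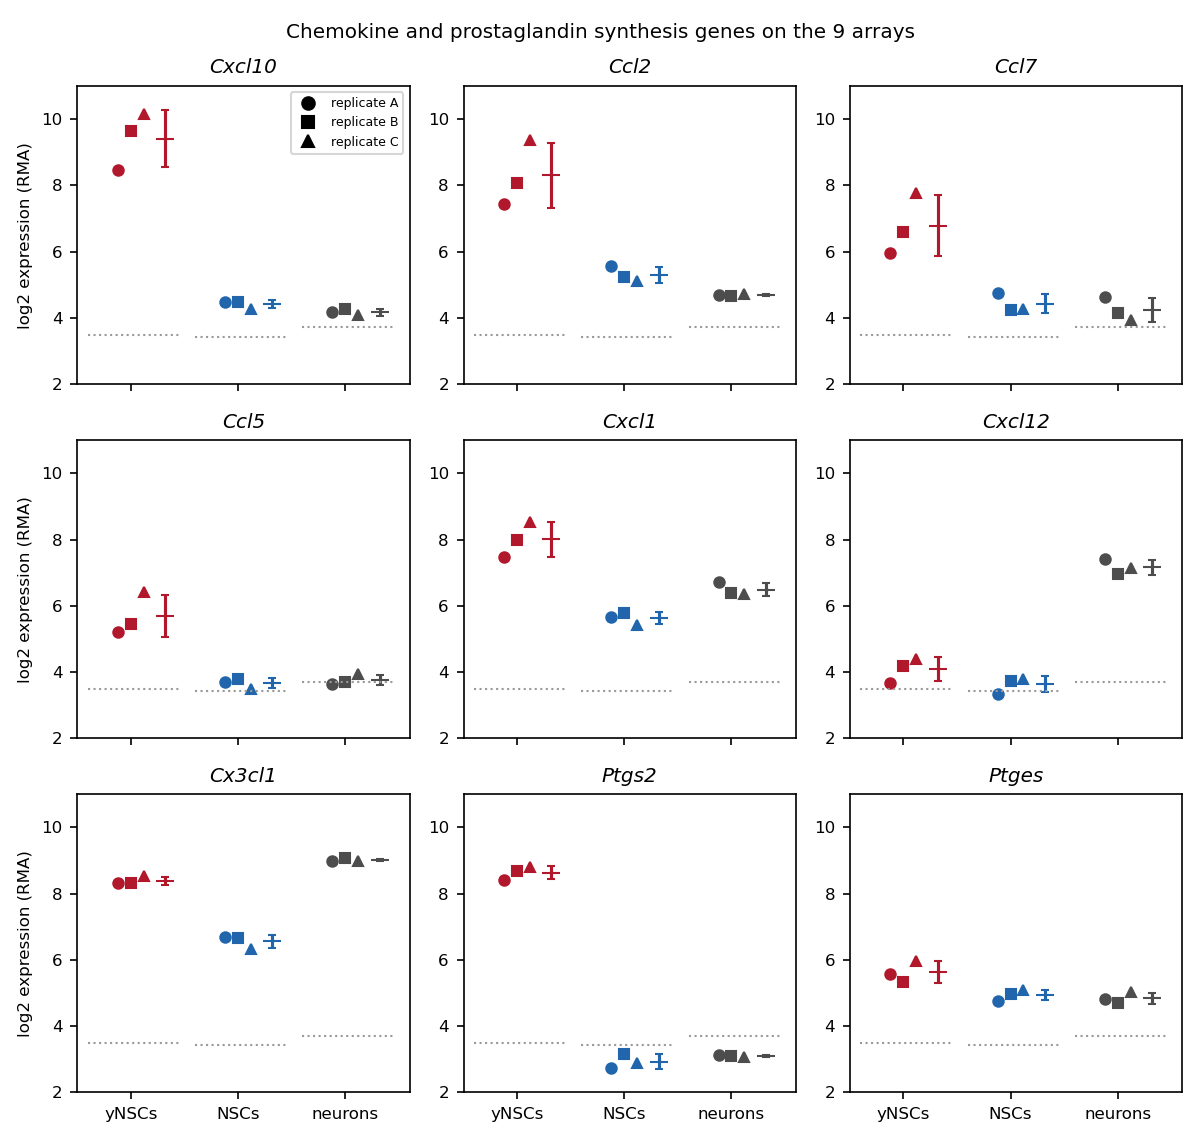
Log2 expression (RMA, y axis) of the 9 measured genes on each array, with yNSCs, NSCs and neurons from left to right. Circles, squares and triangles are replicates A, B and C, the bar beside them is the mean ± SD (n = 3) and the dotted line is the mean lower quartile of the group's arrays. Ptgs2 and Cxcl10 show the widest gap of yNSCs above both other groups, and Cxcl12 and Cx3cl1 are highest in neurons.

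Of the prostaglandin genes, the inducible cyclooxygenase Ptgs2 differed most. Ptgs2 (1417262_at) read 8.42, 8.68 and 8.80 in yNSCs, 2.74, 3.17 and 2.88 in NSCs, and 3.12, 3.09 and 3.06 in neurons. NSCs and neurons overlapped near background, so the fold of 46.6 against neurons (difference 5.54, SE 0.132) and of 52.1 against NSCs (5.70) rests on values there. The second probe set, 1417263_at, read 6.93, 7.44 and 8.08 in yNSCs, 2.72, 2.70 and 3.11 in NSCs, and 3.20, 3.35 and 3.08 in neurons, and gave 4.27 against neurons and 4.64 against NSCs. Both probe sets thus placed every yNSC array far above the other 6. Ptges, the inducible prostaglandin E synthase (1449450_at), read 5.58, 5.32 and 5.98 in yNSCs, 4.77, 4.96 and 5.08 in NSCs, and 4.82, 4.69 and 5.02 in neurons. The yNSC arrays were above the others by a small margin, 0.78 (SE 0.162) against neurons and 0.69 against NSCs. The other 2 probe sets differed by 0.30 and 0.15 against neurons, and on each of them the lowest yNSC array did not exceed the highest neuron array.

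The 9 genes together can be set beside all genes, but since they were chosen on these differences, nothing is read from the counts. Against neurons, 7 of 9 were called higher in yNSCs (limma, adjusted p under 0.05; 34.6% of all genes) and 2 lower (27.9%), and the groups did not overlap for 9 of 9 (67.0% of all genes). Against NSCs, 8 of 9 were called higher in yNSCs (21.3%) and 0 lower (18.0%), Cxcl12 was not called, and 8 of 9 did not overlap (51.6%). In NSCs against neurons, 0 of 9 were called higher (33.3%) and 3 lower (34.1%), namely Cxcl1, Cxcl12 and Cx3cl1, and 5 of 9 did not overlap (69.1%). With only the 6 arrays of that comparison in the fit, 1 was called higher, and leaving out single arrays gave 0 to 1. The median difference of the 9 was 1.92 for yNSCs against neurons, 2.35 for yNSCs against NSCs and -0.11 for NSCs against neurons, where all genes had medians of -0.01, 0.07 and -0.07. The comparisons share arrays and are not independent of each other. With each array's median subtracted, the median of all genes moved to -0.19 for yNSCs against neurons and -0.21 for NSCs against neurons.

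**Figure D2:**
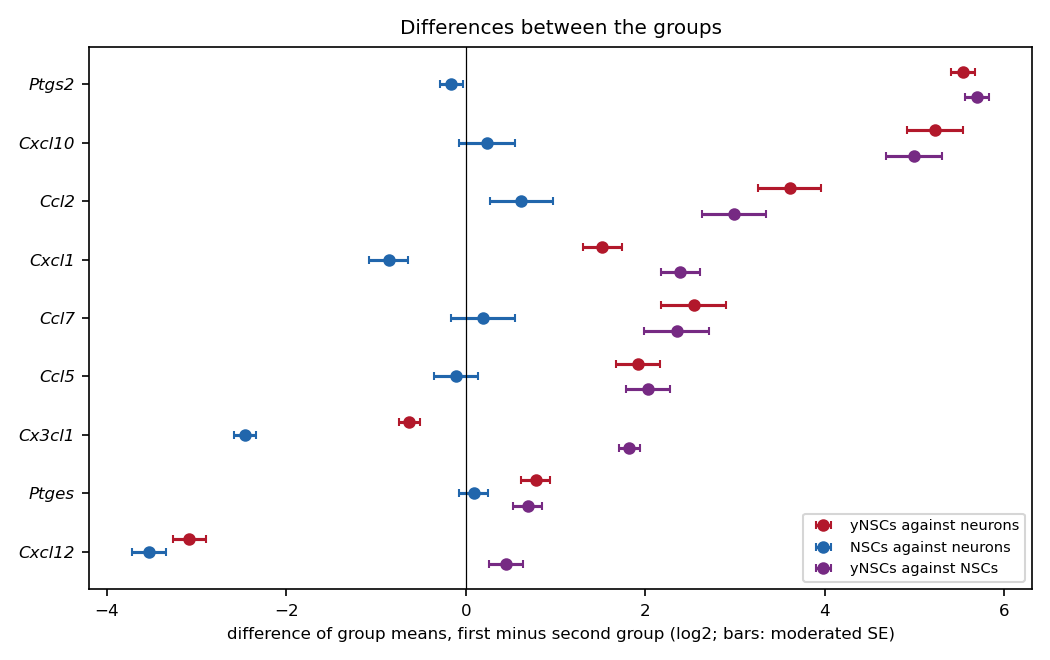
Difference of group means for each gene on the log2 scale (x axis, first named group minus the second), with bars of ± 1 moderated SE, ordered by yNSCs against NSCs. Points right of 0 are higher in the first group: Ptgs2 lies at 5.54 and 5.70 and Cxcl10 at 5.23 and 4.99 in the comparisons of yNSCs, while NSCs against neurons stays between -0.86 and 0.62 except for Cx3cl1 and Cxcl12.

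The 3 yNSC arrays differed from each other in these genes more than in most. Replicate C was the highest of the yNSC arrays for 9 of 9 genes (35.2% of all genes) and replicate A the lowest for 7 of 9 (26.2%). The range over the yNSC arrays was 1.92 for Ccl2, 1.82 for Ccl7, 1.69 for Cxcl10, 1.21 for Ccl5 and 1.06 for Cxcl1. A range above 1 was seen for these 5 of the 9 genes and for 56 of the 18193 genes (0.308%). Cx3cl1 ranged over 0.22 and Ptgs2 over 0.38, where the median of all genes was 0.19. On the dimmer probe set of Ptgs2, 1417263_at, the range was 1.15, again with replicate A lowest and replicate C highest. In NSCs and in neurons 0 of the 9 genes ranged over more than 1. Without yNSC replicate C the difference from neurons was 4.87 for Cxcl10, 3.08 for Ccl2, 2.04 for Ccl7, 1.56 for Ccl5 and 1.26 for Cxcl1, and the same 7 genes were called higher. What set the yNSC arrays apart was not tested.

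**Figure D3:**
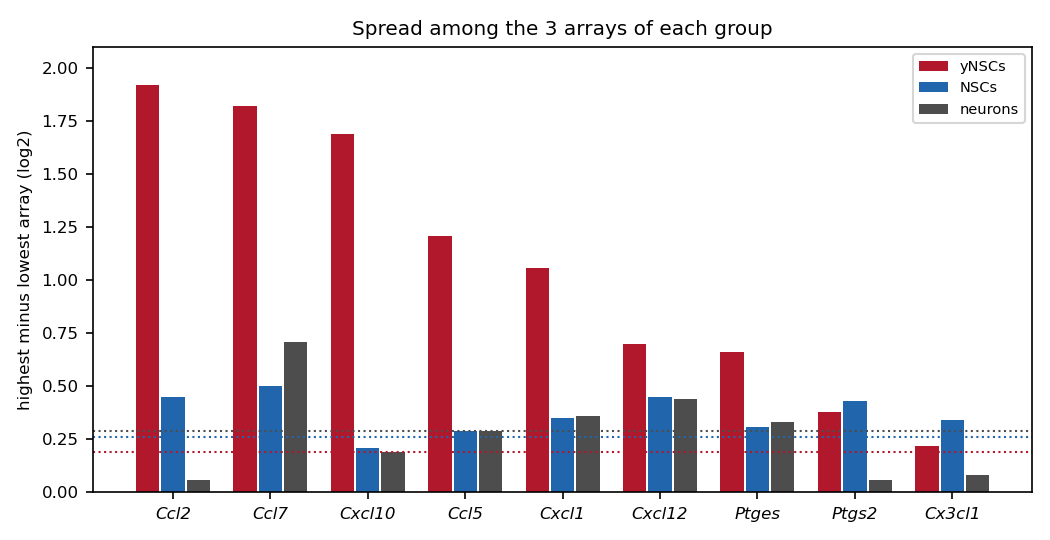
Highest minus lowest array of each group on the log2 scale (y axis) for the 9 genes, yNSCs, NSCs and neurons from left to right. Dotted lines are the medians over all genes in the colour of each group (0.19, 0.26 and 0.29). The yNSC bars exceed 1 for Ccl2, Ccl7, Cxcl10, Ccl5 and Cxcl1 and no bar of NSCs or neurons does.

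Genes of the same pathways were counted in lists written from general knowledge of the pathways, with earlier results of these data known. Among all genes, 34.6% were called higher and 27.9% lower in yNSCs against neurons and 21.3% and 18.0% against NSCs. In NSCs against neurons the shares were 33.3% and 34.1%. These shares belong beside every list count below, markers included, and nothing is read from a count near them. Of 28 other chemokine ligands, 3 rose and 12 fell in yNSCs against neurons, 10 rose and 1 fell against NSCs, and 1 rose and 18 fell in NSCs against neurons. The median difference was -0.26, 0.28 and -0.47 in these comparisons. After another quantile normalization 4 rose and 8 fell in yNSCs against neurons, 5 rose and 2 fell against NSCs, and 2 rose and 9 fell in NSCs against neurons. Without NSC replicate C or without yNSC replicate A, 6 rather than 10 rose in yNSCs against NSCs. Cxcl14, a chemokine of epithelia and brain, averaged 8.39 in yNSCs, 3.39 in NSCs (near background) and 7.14 in neurons. It rose by 1.25 (SE 0.0988, limma adjusted p 2.65e-07) against neurons and by 5.0 (adjusted p 1.05e-10) against NSCs. Ccl27a, known as a skin chemokine, averaged 5.81, 4.10 and 8.52 in yNSCs, NSCs and neurons and fell by 2.71 in yNSCs against neurons (adjusted p 3.25e-07). The macrophage product Ccl3 and the platelet factor Pf4 averaged 3.39 and 4.43 in yNSCs, 3.15 and 5.69 in NSCs, and 5.62 and 7.21 in neurons. Both fell in yNSCs against neurons (adjusted p 8.21e-09 and 6.18e-07), and Ccl3 lay near background in yNSCs and NSCs. Cxcl9 and Cxcl11, which share the receptor CXCR3 with Cxcl10, did not share its pattern: they averaged 2.72 and 3.73 in yNSCs, 2.66 and 3.44 in NSCs, and 3.13 and 3.50 in neurons. They were named after their values were seen.

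The receptors of these chemokines were counted next. Of 21 chemokine receptors, 2 rose and 6 fell in yNSCs against neurons (34.6% and 27.9% of all genes). Against NSCs 3 rose and 0 fell (21.3% and 18.0%), and 2 rose and 10 fell in NSCs against neurons (33.3% and 34.1%). Counts of falls depend on the scaling (2 of yNSCs against neurons after another quantile normalization and 10 with medians subtracted), and without yNSC replicate C 1 receptor rather than 3 rose against NSCs. CXCL10's receptor Cxcr3 averaged 3.36 in yNSCs, 3.64 in NSCs and 3.74 in neurons. Ccr2, the receptor of CCL2 and CCL7, averaged 4.84 in yNSCs, 4.85 in NSCs and 5.17 in neurons and was not called for yNSCs against neurons (adjusted p 0.0692). CXCL1's receptor Cxcr2 averaged 3.16, 3.10 and 3.58 in yNSCs, NSCs and neurons, near background in each. For CXCL12, the signalling receptor Cxcr4 averaged 5.72 in yNSCs, 5.54 in NSCs and 5.01 in neurons and rose by 0.71 in yNSCs (SE 0.152, adjusted p 0.00135) and by 0.53 in NSCs against neurons (adjusted p 0.00809), opposite in sign to Cxcl12. The scavenger Ackr3 averaged 7.30 in yNSCs, 7.80 in NSCs and 6.67 in neurons and rose in yNSCs against neurons by 0.63 (adjusted p 0.0146), a call that another quantile normalization ended. Cx3cr1, the microglial receptor of CX3CL1, averaged 4.10 in yNSCs, 4.05 in NSCs and 6.19 in neurons and fell by 2.09 in yNSCs against neurons (SE 0.203, adjusted p 1.81e-06). Ackr1, which binds many inflammatory chemokines without signalling, averaged 5.26, 4.75 and 9.08 in yNSCs, NSCs and neurons and fell by 3.81 (adjusted p 2.83e-10).

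Among 7 enzymes that cleave chemokines, Adam10 and Adam17, which release CX3CL1 from the membrane, averaged 10.64 and 8.55 in yNSCs, 10.96 and 8.83 in NSCs, and 9.17 and 6.40 in neurons. They rose by 1.47 and 2.15 in yNSCs against neurons (adjusted p 7.91e-07 and 7.57e-09). Cathepsin S (Ctss), which microglia secrete and which cleaves CX3CL1 as well, averaged 6.66 in yNSCs, 4.15 in NSCs and 9.95 in neurons and fell by 3.29 in yNSCs against neurons (adjusted p 1.18e-08). In all, 3 of the 7 rose and 1 fell in this comparison, 4 rose and 3 fell in NSCs against neurons, and 1 rose and 2 fell in yNSCs against NSCs.

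On the prostanoid side, 3 phospholipases that can supply the substrate of Ptgs2 were measured, and each had its own pattern. Pla2g4a, the cytosolic phospholipase that releases arachidonic acid, is the neighbour of Ptgs2 in RefSeq gene order. It read 9.05, 9.16 and 8.93 in yNSCs, 6.08, 6.33 and 6.33 in NSCs, and 3.75, 4.27 and 3.53 in neurons. The 3 groups did not overlap, and Pla2g4a rose by 5.20 (SE 0.168, limma adjusted p 1e-10) in yNSCs against neurons, by 2.80 (adjusted p 8.97e-08) against NSCs and by 2.40 (adjusted p 8.14e-08) in NSCs against neurons. Pla2g4a was therefore raised in NSCs as well, where Ptgs2 lay near background. Pla2g5, a secreted phospholipase, averaged 3.39 in yNSCs and 3.18 in NSCs, near background in both, and 4.26 in neurons. It fell by 0.87 in yNSCs against neurons (adjusted p 0.00214). The calcium-independent Pla2g6 averaged 7.15 in yNSCs, 7.85 in NSCs and 5.56 in neurons. It rose by 1.59 in yNSCs against neurons (adjusted p 1.49e-05) and fell by 0.70 against NSCs (adjusted p 0.0129), where the mean of its 3 probe sets was higher by 0.27 in yNSCs and the call was lost without NSC replicate A. Of 15 genes of prostanoid synthesis and removal other than the 3 members, 8 rose and 5 fell in yNSCs against neurons, 8 rose and 2 fell against NSCs, and 6 rose and 5 fell in NSCs against neurons.

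The terminal synthases did not move as one. Ptges2, a second prostaglandin E synthase, averaged 7.98 in yNSCs, 7.22 in NSCs and 6.97 in neurons and rose by 1.01 against neurons (adjusted p 6.98e-05) and by 0.77 against NSCs (adjusted p 0.00132). Ptgds, the prostaglandin D synthase of brain, averaged 9.59 in yNSCs, 10.62 in NSCs and 8.26 in neurons. It rose by 1.33 in yNSCs against neurons (adjusted p 1.64e-06) and fell by 1.03 against NSCs (adjusted p 4.2e-05). Hpgds, the prostaglandin D synthase of blood cells, and Tbxas1, the thromboxane synthase, averaged 4.47 and 4.58 in yNSCs, 3.99 and 4.66 in NSCs, and 5.44 and 5.34 in neurons and fell in yNSCs against neurons (adjusted p 8.17e-05 and 6.84e-05). The prostacyclin synthase Ptgis averaged 4.39, 4.33 and 4.19 in yNSCs, NSCs and neurons and was called in no comparison (adjusted p 0.178, 0.33 and 0.746 for yNSCs against neurons, NSCs against neurons and yNSCs against NSCs), though another quantile normalization called it higher in yNSCs and in NSCs against neurons.

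Genes of transport and removal differed among themselves. The prostaglandin exporter Abcc4 averaged 9.04 in yNSCs, 8.36 in NSCs and 6.11 in neurons and rose by 2.93 against neurons (adjusted p 7.97e-10) and by 0.68 against NSCs (adjusted p 0.000714). The reductases Ptgr1 and Ptgr2, which act on oxidised prostaglandins, averaged 11.04 and 9.22 in yNSCs, 8.92 and 8.0 in NSCs, and 6.17 and 7.0 in neurons. They rose by 4.87 and 2.23 against neurons (adjusted p 7.71e-12 and 3.77e-08). Hpgd, whose enzyme starts prostaglandin inactivation, averaged 3.03 in yNSCs, 2.95 in NSCs and 3.05 in neurons, near background in each. Cbr1, a carbonyl reductase that also acts on prostaglandins and was named after its values were seen, averaged 8.69 in yNSCs, 8.51 in NSCs and 9.37 in neurons and fell by 0.68 in yNSCs against neurons (adjusted p 0.000212), with no call against NSCs (adjusted p 0.251).

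The receptors of prostaglandin E2 split in direction. Ptger2, which raises cAMP, averaged 4.28 in yNSCs and lay near background in both other groups, at 2.59 in NSCs and 2.71 in neurons. It rose by 1.58 against neurons (SE 0.126, adjusted p 2.9e-07) and by 1.70 against NSCs (adjusted p 5.54e-07). Ptger4, which raises cAMP too, averaged 5.19, 4.27 and 4.48 in yNSCs, NSCs and neurons and rose by 0.71 and 0.92 against neurons and NSCs (adjusted p 0.0038 and 0.00128). Ptger3, which lowers cAMP, averaged 2.81 in yNSCs and 2.35 in NSCs, near background in both, and 5.36 in neurons. It fell by 2.56 in yNSCs against neurons (adjusted p 2.24e-09). Ptger1, which acts through calcium, averaged 4.88, 4.73 and 4.82 and was not called (adjusted p 0.709 for yNSCs against neurons), but its other probe set went the other way, and the mean of its probe sets fell by 0.76 in yNSCs against neurons. Over all 9 prostanoid receptors, 2 rose and 3 fell in yNSCs against neurons, 3 rose and 0 fell against NSCs, and 0 rose and 3 fell in NSCs against neurons.

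**Figure D4:**
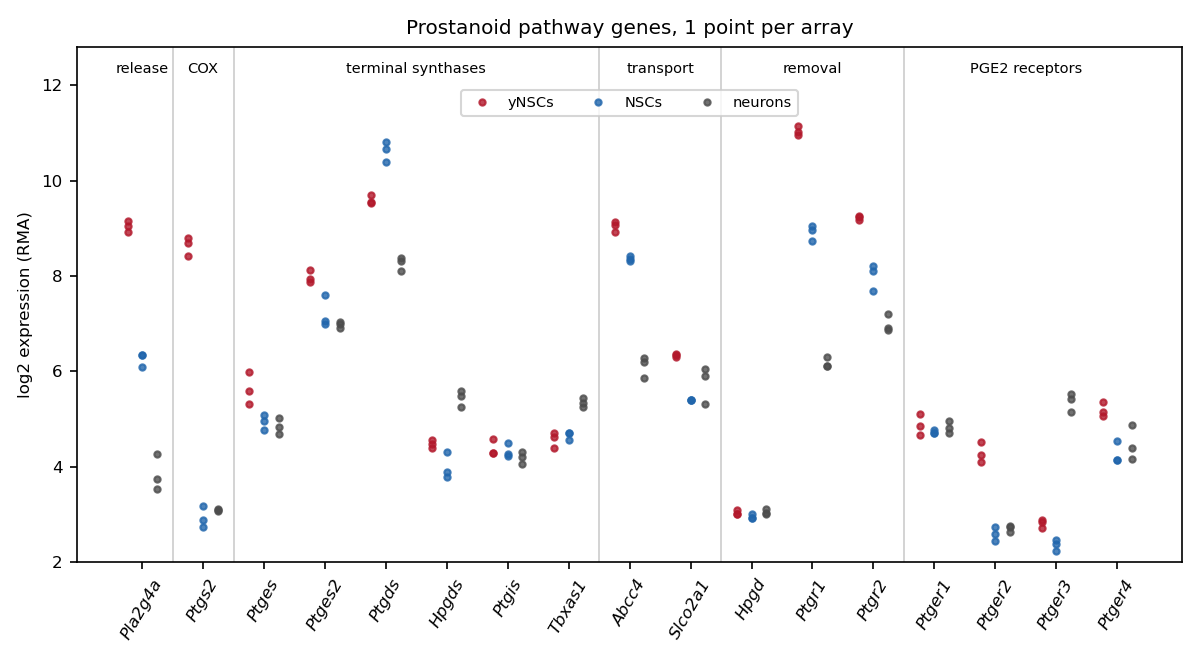
Log2 expression (RMA, y axis) of prostanoid pathway genes, 1 point per array, with yNSCs, NSCs and neurons from left to right for each gene, grouped by step of the pathway. Pla2g4a, Ptgs2, Ptges2, Abcc4, Ptgr1, Ptgr2 and Ptger2 are highest in yNSCs, Ptgds is highest in NSCs, and Ptger3 and Hpgds are highest in neurons.

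Genes of NF-kB and interferon signalling were counted in the same way. Both lists mix regulators with genes that these pathways induce, and the part of either pathway in the member values was not tested. Of 25 genes of NF-kB signalling and inflammatory cytokines, 17 rose and 3 fell in yNSCs against neurons, 16 rose and 1 fell against NSCs, and 9 rose and 9 fell in NSCs against neurons, with median differences of 0.98, 0.66 and 0.10. Nfkbiz, an NF-kB cofactor, averaged 9.19 in yNSCs, 8.06 in NSCs and 5.30 in neurons and rose by 3.89 against neurons (adjusted p 1.09e-08). Il1r1, the interleukin-1 receptor, averaged 7.48, 5.67 and 4.81 in yNSCs, NSCs and neurons and rose by 2.67 against neurons (adjusted p 1.23e-07) and by 1.80 against NSCs (adjusted p 1.32e-05). The adhesion molecule Vcam1 averaged 10.19 in yNSCs, 6.95 in NSCs and 8.16 in neurons and rose by 3.24 against NSCs (adjusted p 7.47e-10). The 3 that fell against neurons were Il1a (-0.51), Nfkb2 (-0.54) and Traf1 (-0.5), at adjusted p 0.0494, 0.0122 and 0.0084. Il1a lay near background in each group, and the mean of the probe sets of Nfkb2 went the other way. Rela, an NF-kB subunit, rose by 0.91 against neurons (adjusted p 0.000133). It was the 1 that fell against NSCs (-0.46, adjusted p 0.0233). Of the cytokines, named after their values were seen, Tnf, Il1b and Il6 averaged 4.81, 4.39 and 3.14 in yNSCs, 4.73, 4.21 and 2.28 in NSCs, and 5.26, 4.63 and 2.53 in neurons. Il6, near background in each group, rose by 0.61 in yNSCs against neurons (adjusted p 8.11e-05), and Tnf and Il1b were not called (adjusted p 0.0889 and 0.164). Of 15 interferon pathway factors, 12 rose and 2 fell in yNSCs against neurons, 7 rose and 0 fell against NSCs, and 7 rose and 2 fell in NSCs against neurons. Tlr3, Ddx58 and Ifih1, sensors of double-stranded RNA, averaged 8.19, 7.06 and 6.73 in yNSCs, 6.34, 5.35 and 4.86 in NSCs, and 5.42, 4.60 and 4.99 in neurons, and rose in yNSCs against NSCs (adjusted p 1.85e-07, 4.24e-06 and 8.24e-07). Irf9, which carries the interferon signal to DNA, averaged 7.47 in yNSCs, 5.64 in NSCs and 5.95 in neurons and rose by 1.53 against neurons (adjusted p 4.63e-06). The 2 that fell in yNSCs against neurons were Ifngr2 (-0.87, adjusted p 3.16e-05) and Jak1 (-0.55, adjusted p 0.000879).

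The genes whose values over the 9 arrays, each less its own mean, lay nearest to a member are a description and carry no test, and all arrays of a group share their cells and medium. For Cxcl10 they were Usp18 (root mean square difference 0.28), Ifit1 (0.29) and Hspa1a (0.32), for Ccl5 Socs1 (0.11), Arg1 (0.18) and Rsad2 (0.24), and for Ccl7 Rsad2 (0.35), Ptx3 (0.37) and Ccn1 (0.40). Usp18, Ifit1, Socs1 and Rsad2 are known interferon-induced genes. For Ccl2 they were Gadd45b (0.40), Ptx3 (0.42) and Irgm1 (0.42), and for Cxcl1 Ccn2 (0.18), Papss2 (0.19) and Osgin1 (0.20). Ccn1 and Ccn2 are matricellular proteins and known YAP targets. Ptgs2 was nearest to Akr1b8 (0.16), S100a6 (0.36) and Cnn1 (0.37), and Ptges to Nek6 (0.13), Dnah1 (0.14) and Wdr25 (0.14). The neuron-high genes were nearest to Sh3gl3 (0.16), Ramp3 (0.18) and Sla (0.19) for Cxcl12 and to Aig1 (0.15), Cltb (0.16) and Hacd4 (0.16) for Cx3cl1.

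The labels were checked against markers and against other cell types that could carry these genes. The introduced gene Yap1 averaged 9.18 ± 0.02 in yNSCs, 9.72 ± 0.18 in NSCs and 7.29 ± 0.29 in neurons (SD, n = 3), and whether its probe set detects the introduced YAP was not tested. All 8 neuron markers were lower in yNSCs and in NSCs than in neurons (Tubb3 averaged 5.71, 4.42 and 12.10 in yNSCs, NSCs and neurons). Among 8 neural stem cell markers, 5 were called higher and 1 lower in yNSCs against neurons, and 7 higher and 0 lower in NSCs against neurons. Between the stem cell groups they matched in part: 1 was called higher, 3 lower and 4 not called in yNSCs against NSCs. Nes averaged 9.81 in yNSCs, 9.62 in NSCs and 7.69 in neurons, and Sox2 11.55, 11.81 and 10.37. Neither was called between the stem cell groups (limma adjusted p 0.27 and 0.0827). Among those called lower, and named after their values were seen, Hes5 averaged 4.22 in yNSCs, 8.09 in NSCs and 5.05 in neurons. Egfr averaged 8.32, 11.31 and 8.01. Microglia and macrophage markers moved with the neuron-high genes: 13 of 15 were lower in yNSCs and 15 of 15 in NSCs than in neurons, with a log2 summed level of 9.34 to 9.57 on yNSC arrays, 7.89 to 8.01 on NSC arrays and 12.47 to 12.92 on neuron arrays. C1qa averaged 4.94, 3.73 and 10.42 in yNSCs, NSCs and neurons. Against NSCs, 10 of 15 microglia markers were called higher in yNSCs and 0 lower. Cd68, a lysosomal protein of macrophages named after its values were seen, averaged 8.42 in yNSCs, 4.22 in NSCs and 9.15 in neurons (adjusted p 4.15e-09 for yNSCs against NSCs), and Tyrobp averaged 5.25, 3.65 and 10.13 in yNSCs, NSCs and neurons. Near background in yNSCs were 3 of the 15, Aif1 (2.82), Itgam (2.98) and Ptprc (3.13). Smooth muscle genes of the mural list moved with the yNSC-high genes (Tagln 11.93 and Acta2 10.79 in yNSCs, 7.14 and 9.10 in NSCs, 5.72 and 5.95 in neurons; summed level 12.34 to 12.75, 9.72 to 10.08 and 9.17 to 9.26), while Pdgfrb and Col1a1 lay at 3.94 and 3.96 in yNSCs, 4.05 and 4.36 in NSCs, and 4.38 and 4.39 in neurons. Over the 13 genes of that list, 3 rose and 6 fell in yNSCs against neurons and 4 rose and 3 fell against NSCs; without neuron replicate C or yNSC replicate C, 3 rather than 6 fell. Of 10 endothelial markers, 0 rose and 2 fell in yNSCs against neurons (0 once either neuron replicate A or yNSC replicate B is left out), with summed levels of 7.39 to 7.57 in yNSCs, 7.17 to 7.30 in NSCs and 7.44 to 7.59 in neurons. Astrocyte markers differed among themselves, though 0 of 10 lay near background in any group. Gfap averaged 9.23 in yNSCs, 3.80 in NSCs and 7.62 in neurons, and Aqp4 9.80, 4.97 (SD 1.37) and 10.62, both low in NSCs. Aldh1l1 averaged 10.52, 10.56 and 8.88 in yNSCs, NSCs and neurons. Against NSCs, 5 of the 10 were called higher and 1 lower in yNSCs. Of 6 oligodendrocyte precursor markers, 2 rose and 4 fell in yNSCs against neurons. The part of these cells in the chemokine values was not tested, and in bulk RNA fewer cells of a type cannot be told apart from less RNA per cell.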

How the data were processed

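Total RNA of 9 cultures was hybridised as biotinylated cRNA, 1 array each. The deposited values, 1 for each probe set, are log2 expression from RMA as run by the authors; its version and the arrays normalized together are not given in the sources used here. They ranged from 1.73 to 14.46, with array medians from 4.90 to 5.01, and were used as deposited. Of 45101 probe sets, 64 controls were left out, and 34945 had 1 gene symbol in the annotation, of which 34741 matched a RefSeq gene ID; 932 with several symbols and 9160 not named entered no comparison. The probe set of highest mean stood for each of 18193 genes.

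A single limma model (version 3.58.1, R 4.3.3) of the 3 group means held all arrays, with two-sided tests and Benjamini-Hochberg adjustment over all genes, called under 0.05. The fit was checked on simulated data. The number of arrays limits precision: an exact permutation test of 3 against 3 cannot go below p = 0.1. Members and lists were chosen with earlier results of these data known. Named are the members with all their probe sets, up to 3 called genes of largest rise and fall per list and comparison (the text takes a part), receptors and synthases of the pathway, fixed markers and the 3 most like genes of each member. Alternatives were other scaling, filters, probe set means, the fit's arrays, a replicate block, a variance trend, a 2-fold minimum and leaving out each array. Motifs were counted in RefSeq promoter windows on GRCm38.p6.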

Additional observations from a re-analysis of the deposited data

How the results depend on the processing

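Leaving out any array moved no count of calls over all genes or all pathway genes by over 1.5 times and changed no sign of a called member difference. The median difference of the members for yNSCs against NSCs lay between 1.85, without yNSC replicate C, and 2.65. A 2-fold minimum left 5329 genes for yNSCs against neurons, 5676 for NSCs against neurons and 2188 for yNSCs against NSCs, and 43, 39 and 24 pathway genes, where 79, 79 and 54 were called. Without the 40% of genes of lowest mean, 46, 42 and 35 pathway genes were called, and 4 members remained, with medians of 2.57 for yNSCs against neurons and -0.31 for NSCs against neurons. Another quantile normalization gave a member median of 0.25 for NSCs against neurons, where Ccl5 and Ptgs2 changed sign without being called. The pathway calls split into 47 higher and 32 lower for yNSCs against neurons and 29 and 50 for NSCs against neurons; they split into 47 and 23, and 36 and 28, after another quantile normalization and into 43 and 47, and 28 and 62, with array medians subtracted. The calls over all genes split into 6294 and 5081, and 6051 and 6206, in the main setting, and into 5391 and 7567, and 5456 and 7969, with medians subtracted. Single probe sets turned the sign of Cx3cl1 for yNSCs against neurons (1421610_at, 0.04) and of Cxcl12 for NSCs against neurons (1417574_at, 0.02). The mean of all probe sets turned Adam10 (0.37), Ifnar2 (-0.39) and Pla2g6 (0.27) for yNSCs against NSCs, Ptger1 (-0.76) for yNSCs against neurons, and Nfkb2 for yNSCs against neurons (0.36) and NSCs against neurons (0.45). The cause of these changes was not tested. The labels do not say whether the replicate letters pair the samples. Deviations of same-letter arrays correlated between -0.105 and 0.1 and those of other letters between -0.184 and 0.136. Deviations from a mean of 3 arrays are tied to each other, so these values cannot decide it. A replicate block gave 11215, 12092 and 6919 calls for yNSCs against neurons, NSCs against neurons and yNSCs against NSCs, with 78, 78 and 52 pathway calls. Signals near background limit the size of differences there.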

Other observations

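The 56 genes whose yNSC arrays spanned over 1 on the log2 scale can be looked at beyond the chemokines. In yNSC replicate C, 46 of them were highest. They were named here after their values were seen. Besides Ccl2, Ccl7, Cxcl10, Ccl5 and Cxcl1 they held Cxcl2 (5.38, 6.16 and 7.05 on yNSC arrays A, B and C) and the colony-stimulating factor Csf2 (3.87, 4.30 and 5.25). They also held genes known to answer interferon, such as Ifit1 (7.40, 8.24 and 9.27), Ifit3 (9.08, 9.78 and 10.52) and Rsad2 (7.64, 8.26 and 9.16). Genes known for rapid induction were among them, such as Atf3 (6.71, 7.11 and 8.15), Nr4a1 (7.06, 7.86 and 8.56) and Maff (6.61, 7.21 and 8.25), and so were the heat shock genes Hspa1a (8.65, 9.50 and 10.13) and Hspb1 (8.61, 9.57 and 10.03). The YAP target genes Ccn1 (8.42, 9.03 and 9.97) and Ccn2 (6.07, 6.63 and 7.22) showed the same order of arrays. A range over 1 was found for 261 genes (1.43%) in NSCs and 184 (1.01%) in neurons, so the yNSC arrays differed from each other in fewer genes.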
